A study of Mus musculus with 8 samples.

Results

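The EMT transcription factors are the DNA-binding proteins best known for switching on epithelial–mesenchymal transition (EMT), and 9 genes of this kind were followed here. They were chosen by name, as the Snail family (Snai1, Snai2, Snai3), the Twist family (Twist1, Twist2), the Zeb family (Zeb1, Zeb2) and the paired-related homeobox genes (Prrx1, Prrx2). These factors and the gene lists used below were chosen with earlier results of these data known. All 9 were among the 24346 genes listed. Total RNA depleted of rRNA was sequenced from adipose-derived stem cells (ADSCs) grown as 2D cultures or as 3D organotypic cultures, and the comparison asks how the culture changes their transcriptome. The cells were primary cultures of gonadal fat from WT male BALB/c mice that were 12 weeks old. The 4 libraries of 2D culture came from mice 2, 3, 4 and 5, and the 4 libraries of 3D culture from mice 1, 4, 5 and 7, with 1 library per mouse and culture. For 3D culture, the digested cells were embedded in Matrigel, a basement membrane gel, and several media with Wnt3a- and R-Spondin1-conditioned medium were tried; which of them the sequenced 3D cultures received is not given in the sources used here. No cell sorting is described, so that a library could hold several of the cell types of the digested tissue.

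In EMT, epithelial cells loosen their junctions and take on the shape and motility of mesenchymal cells, and the reverse process is called mesenchymal–epithelial transition (MET). Snail and Zeb proteins are zinc finger repressors that bind E-box sequences in the promoters of junction genes and recruit corepressors there. Twist proteins are basic helix-loop-helix (bHLH) factors that act as dimers with E proteins, while the Prrx homeobox proteins mark embryonic mesenchyme and connective tissue cells. Fibroblasts and mesenchymal stem cells normally express many of these factors as part of their identity, without having passed through an epithelial state.

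The E-box bound by Snail and Zeb proteins reads CAGGTG, or CACCTG on the opposite strand, and both forms were searched on the 300 bases from 250 before to 50 after each start site (RefSeq, GRCm38.p6). Promoters of 6 members were in the RefSeq table used here (Snai1, Twist1, Twist2, Zeb2, Prrx1 and Prrx2), with 9 promoters in all. The promoter of Snai1 is shown as the member promoter that held the site, and that of Twist1 as the member whose RNA fell least among those that fell. Those of Epcam, Cldn4 and Rab25 are shown because these epithelial genes, known or proposed targets of the factors, each held 2 sites, had 1 promoter in the table and were among the 6 targets with the largest log2 fold change, and that of Crb3 because it held the most sites. All are read on the strand of the gene, with E-boxes in capitals: Snai1 (chr2:167537945-167538244, plus strand), Twist1 (chr12:33957421-33957720, plus), Epcam (chr17:87635729-87636028, plus), Cldn4 (chr5:134946885-134947184, minus), Rab25 (chr3:88548230-88548529, minus) and Crb3 (chr17:57061951-57062250, plus).
Snai1: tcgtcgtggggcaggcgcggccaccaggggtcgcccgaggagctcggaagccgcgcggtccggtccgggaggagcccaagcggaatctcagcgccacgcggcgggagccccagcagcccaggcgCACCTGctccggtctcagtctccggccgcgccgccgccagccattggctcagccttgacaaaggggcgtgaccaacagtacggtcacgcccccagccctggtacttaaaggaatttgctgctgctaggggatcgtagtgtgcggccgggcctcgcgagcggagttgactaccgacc
Twist1: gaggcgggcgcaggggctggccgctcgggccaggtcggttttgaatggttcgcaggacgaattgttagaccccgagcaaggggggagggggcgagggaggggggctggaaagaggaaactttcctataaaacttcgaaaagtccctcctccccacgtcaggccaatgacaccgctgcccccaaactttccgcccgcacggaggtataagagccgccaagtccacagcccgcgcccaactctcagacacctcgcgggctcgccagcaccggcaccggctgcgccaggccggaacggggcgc
Epcam: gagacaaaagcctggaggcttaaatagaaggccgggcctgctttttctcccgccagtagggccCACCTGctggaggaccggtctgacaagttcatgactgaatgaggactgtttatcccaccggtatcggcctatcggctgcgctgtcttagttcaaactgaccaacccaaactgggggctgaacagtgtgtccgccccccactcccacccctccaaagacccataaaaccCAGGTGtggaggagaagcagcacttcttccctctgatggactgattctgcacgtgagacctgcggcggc
Cldn4: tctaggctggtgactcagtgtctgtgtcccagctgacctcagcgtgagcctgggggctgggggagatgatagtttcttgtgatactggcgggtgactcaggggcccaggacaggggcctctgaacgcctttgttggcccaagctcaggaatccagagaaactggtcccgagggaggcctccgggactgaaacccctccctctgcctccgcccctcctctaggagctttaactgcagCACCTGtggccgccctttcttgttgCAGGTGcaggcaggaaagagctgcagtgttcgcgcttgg
Rab25: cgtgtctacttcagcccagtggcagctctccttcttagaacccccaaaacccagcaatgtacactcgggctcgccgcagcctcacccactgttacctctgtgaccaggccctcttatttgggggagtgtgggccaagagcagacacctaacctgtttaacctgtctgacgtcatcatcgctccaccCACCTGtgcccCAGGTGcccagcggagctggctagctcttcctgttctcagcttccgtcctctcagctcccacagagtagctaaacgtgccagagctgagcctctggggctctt
Crb3: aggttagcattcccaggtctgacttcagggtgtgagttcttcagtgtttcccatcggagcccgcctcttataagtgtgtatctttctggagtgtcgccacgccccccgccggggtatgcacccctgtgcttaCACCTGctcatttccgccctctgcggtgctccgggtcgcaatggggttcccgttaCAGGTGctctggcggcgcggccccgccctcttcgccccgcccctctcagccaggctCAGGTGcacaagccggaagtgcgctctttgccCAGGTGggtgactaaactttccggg

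The E-box was found in 1 of the 9 member promoters, that of Snai1, where its first base lay at -126 from the start site. No match lay in the windows of Twist1, Twist2, Prrx1, Prrx2 or the 4 start sites of Zeb2. Over all 32851 mouse promoters of this length, 20.2% held at least 1 E-box and 2.88% held 2 or more. Among the list of epithelial genes that Snail, Zeb or Twist proteins are known or proposed to repress, 16 of 21 promoters (76.2%) held the site and 9 (42.9%) held 2 or more. Cdh1, Llgl2 and Krt19 of this list had no promoter in the RefSeq table used here. The Crb3 windows overlap each other, as do the Ocln windows, so that shared sites were counted in both. Counted by gene, 13 of 15 (86.7%) had a site in some promoter, against 22.6% of 27025 genes, and the windows of the list had a mean GC content of 59.3% against 53.8%. The sites of Epcam began at -187 and -19, those of Cldn4 at -14 and 12, those of Rab25 at -64 and -53, and those of Crb3 at -118, -63, -7 and 26. Of the promoters of mesenchymal genes that EMT raises, 1 of 15 (6.67%) held the site. A match is a run of letters and not evidence of binding, and these epithelial genes were listed as targets partly because such sites are known in some of them.

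The deposited values are FPKM, fragment numbers scaled by library size and transcript length, which can be compared between genes. They were quantile normalized as in the methods of the study and tested on the log2(normalized FPKM + 1) scale, where fold changes of low genes are understated. Fragment counts were not used here, but the steps between low FPKM values gave an estimate of 14.52 to 17.34 M fragments per library, at which 3 fragments on a 1 kb transcript read as 0.173 to 0.207 FPKM. Among 18862 genes above 0 in any library, 20.3% were lower and 21.2% higher in 3D (limma's adjusted p below 0.05), so the comparison holds changes in a large part of the transcriptome. The summed level of 8 stromal markers was 847 to 1401 normalized FPKM in 2D and 0.186 to 0.275 in 3D, and 7 of the 8 were lower in 3D. Pdgfrb, Dcn and Lum were listed at 0 in every 3D library. Lum was at 0 to 0.988 in 2D and did not pass. The sum of 6 epithelial markers went the other way, from 28.3 to 626 in 2D to 1904 to 2262 in 3D. Of 10 markers of epididymal and duct epithelium, an organ that adjoins the gonadal fat, Pax2, Pax8 and Aqp9 were higher in 3D. Lcn8, Crisp1, Cst8 and Rnase10 did not pass, and the mean of Rnase10 was 0.55 in 2D and 0.13 in 3D. Lcn5, Adam7 and Spink13 were listed at 0 in all 8 libraries. The sum was 0.334 to 0.984 in 2D and 40.6 to 72.2 in 3D, where Pax2, Pax8 and Aqp9 made up most of it. The 5 smooth muscle markers were all lower in 3D, with sums of 135 to 1013 in 2D and 0.257 to 0.425 in 3D. Endothelial sums were low in both cultures (5 markers, 1.07 to 6.79 in 2D and 0.048 to 0.202 in 3D). Macrophage sums (5 markers) were 2.07 to 21.3 in 2D and 6.25 to 42.3 in 3D. Of these markers only Cd68 was called, at 0.874 to 3.01 in 2D and 5.98 to 36.3 in 3D. Lyz2 went the other way, from 0.227 to 18.7 in 2D to 0 in every 3D library, and did not pass. Of 5 adipocyte markers Adipoq and Lep were listed at 0 throughout, and none was called. The adipocyte sum was 0.814 to 2.84 in 2D and 1.79 to 2.79 in 3D, and Lipe made up most of it. The labelled cell type, mesenchymal stem cells, thus had its stromal markers other than Lum in the 2D libraries and lacked them in the 3D libraries. In bulk samples, fewer cells of a type and less RNA per cell cannot be told apart, and the part of these marker shifts in the results was not tested.

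Expression of 8 of the 9 factors was lower in 3D than in 2D culture, and none was higher; Snai3 did not pass the test. For the same 8 genes, every 3D library lay below every 2D library, while 20.9% of all genes tested separated in this direction. The median log2 fold change of the 9 factors was -3.58, against 0.0012 for all genes tested. As a share of the mean in 2D, the mean in 3D was 24.3% for Twist1, 11.8% for Prrx2, 3.33% for Snai2 and 0.805% for Prrx1. A single 3D library carried much of the last 3 values, which became 6.12% for Prrx2 without mouse 4, 1.98% for Snai2 without mouse 1 and 0.0555% for Prrx1 without mouse 1. For Snai1, Zeb1, Zeb2 and Twist2 the share was at most 0.401% and rested on 0 to about 6.87 fragments per 3D library, too few to order them.

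**Figure D1:**
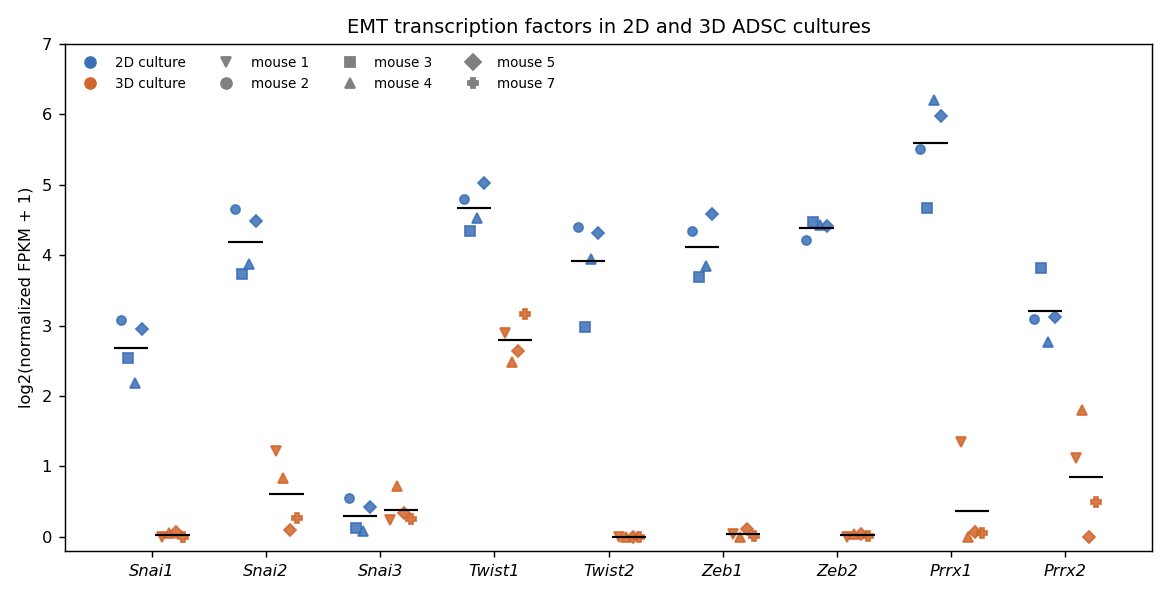
Normalized FPKM of the 9 EMT transcription factors in each library, on a log2(FPKM + 1) axis, with 1 point per library (4 of 2D in blue, 4 of 3D in orange, shape by mouse) and a bar at the mean. Blue and orange points are apart for 8 factors and overlap for Snai3, and Twist1 is the factor that stays highest in 3D.

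Gene positions are those of GENCODE M21 on GRCm38. Snai1 (chr2:167538195-167542814) encodes Snail, a repressor of the E-cadherin gene that is made early in EMT and degraded quickly. In 2D culture, normalized FPKM of 7.42, 4.80, 3.55 and 6.71 were measured for mice 2, 3, 4 and 5. In 3D it was listed at 0 for mice 1 and 7 and was at 0.0408 and 0.0492 for mice 4 and 5, values worth about 1 fragment each. Snail RNA was thus at the edge of detection in every 3D library and well above it in every 2D library. The log2 fold change was -2.65 (standard error, SE, of 0.20 and adjusted p = 4.9e-05 by limma). With 564 estimated fragments in 2D and 2 in 3D, the level was 252-fold lower, with an exact 95% interval of 69.4 to 2084 that covers counting error only.

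Snai2 (chr16:14705852-14709385) encodes Slug, which binds the same E-box and is abundant in many fibroblasts. Its levels were 24.3, 12.3, 13.7 and 21.4 normalized FPKM in 2D (mice 2, 3, 4 and 5) and 1.32, 0.780, 0.0729 and 0.209 in 3D (mice 1, 4, 5 and 7). Slug remained measurable in the 3D libraries of mice 1, 4 and 7, with about 52.4, 29.0 and 6.44 fragments, while that of mouse 5 held about 2.14. The log2 fold change was -3.58 (SE 0.32, adjusted p = 1.1e-04 by limma).

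Snai3 (chr8:122454208-122460733), the least studied Snail paralog, was the exception. It was at 0.464, 0.0912, 0.0636 and 0.339 normalized FPKM in 2D and at 0.183, 0.649, 0.261 and 0.186 in 3D. The groups overlapped, and all 8 values rested on about 18.1 fragments in 2D and 37.4 in 3D. The log2 fold change was 0.09 (95% confidence interval -0.25 to 0.42, limma's adjusted p = 0.64), and it turned to -0.02 without the 3D library of mouse 4. At this depth neither a fall nor a rise of Snai3 was detectable.

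Twist1 (chr12:33957671-33959829), the bHLH factor required for cranial mesenchyme and a driver of EMT in tumours, was the member that fell least among those called. It was at 26.8, 19.3, 22.1 and 31.6 normalized FPKM in 2D and at 6.42, 4.59, 5.21 and 7.99 in 3D. The 3D values rested on about 126 to 213 fragments per library, so that Twist1 was clear of the detection limit in each of them. Its log2 fold change was -1.88 (SE 0.20, adjusted p = 2.5e-04 by limma), and the deposited means differed 4.10-fold. Twist2 (chr1:91801461-91848028), its paralog with roles in skin and connective tissue, was at 20.1, 6.90, 14.5 and 18.8 normalized FPKM in 2D. It was listed at 0 in all 4 libraries of 3D culture, where 3 fragments would read as 0.0758 to 0.0818 FPKM. Taking 3 fragments per library as the floor, Twist2 was at least 191-fold lower in 3D (log2 fold change -3.91, SE 0.31, adjusted p = 5.7e-05 by limma).

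The Zeb genes encode large repressors with zinc finger clusters at either end, which bind paired E-boxes and are held in check by miR-200 microRNAs. Zeb1 (chromosome 18) was at 19.3, 11.9, 13.4 and 23.0 normalized FPKM in 2D and at 0.0278, 0, 0.0807 and 0.0104 in 3D, at most about 6.87 fragments per library. Its log2 fold change was -4.07 (SE 0.22, adjusted p = 8.2e-06 by limma). Zeb2 (chr2:44983632-45117395) was the steadiest factor in 2D, at 17.6, 21.2, 20.5 and 20.3 normalized FPKM. In 3D it was listed at 0 for mouse 1 and was at 0.0234, 0.0326 and 0.00800 for mice 4, 5 and 7, with about 3.96, 3.97 and 0.998 fragments. Zeb2 had the smallest standard error of the 9, with a log2 fold change of -4.36 (SE 0.12, adjusted p = 4.1e-07 by limma). Zeb2os, the antisense gene that overlaps Zeb2, was at 2.53 to 3.30 normalized FPKM in 2D and at 0 to 0.0642 in 3D. The library kit keeps strand, but whether strand was used in the quantification is not given in the sources used here, so that reads of Zeb2 and Zeb2os may have been split between them.

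Prrx1 (chr1:163245119-163313710), a homeobox gene of limb and craniofacial mesenchyme and of fibroblasts, had the highest level of the members in 2D. It was at 44.5, 24.5, 72.5 and 62.2 normalized FPKM in 2D and at 1.55, 0, 0.0437 and 0.0411 in 3D. The 3D library of mouse 1 stood apart, with about 194 fragments against 0 to 3.98 in the others. The log2 fold change was -5.22 (SE 0.43, adjusted p = 6.7e-05 by limma), and -5.58 without that library. Prrx2 (chr2:30834972-30881251), its partly redundant paralog, was at 7.52, 13.1, 5.83 and 7.69 normalized FPKM in 2D and at 1.16, 2.48, 0 and 0.405 in 3D. Here the 3D library of mouse 4 was the highest, with about 62.5 fragments, and that of mouse 5 was listed at 0. The log2 fold change was -2.35 (SE 0.41, adjusted p = 0.0029 by limma), the widest spread relative to its size among the 8 factors called. With only mice 4 and 5, Prrx2 no longer passed (-2.04, limma's adjusted p = 0.14).

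**Figure D2:**
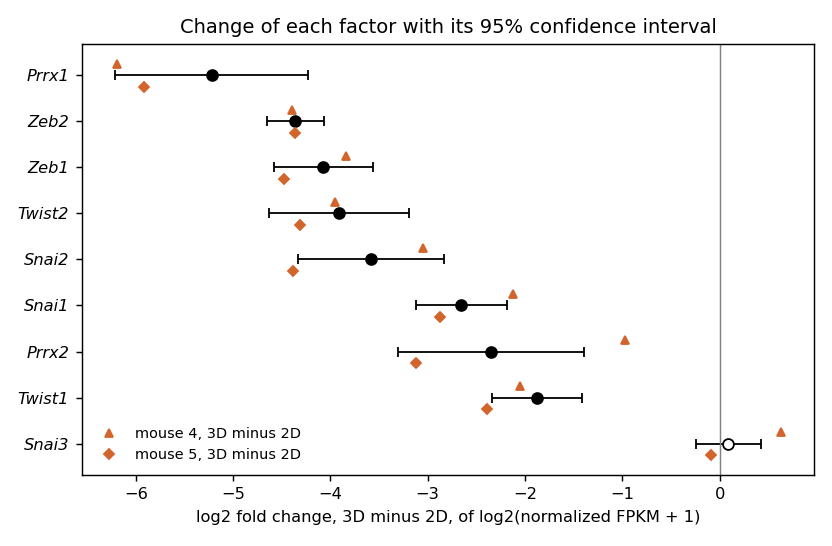
Log2 fold change of each factor from 2D to 3D on the log2(normalized FPKM + 1) scale, with the 95% confidence interval of the limma fit (filled circle, adjusted p below 0.05; open circle, not called) and the differences within mice 4 and 5 in orange. Intervals of 8 factors lie below 0, and that of Snai3 spans it; both mice lie below 0 for the same 8 factors.

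Mice 4 and 5 gave a library in each culture, so the change can also be read within an animal. In mouse 4, the differences were -2.13 for Snai1, -3.05 for Snai2, -2.05 for Twist1, -3.95 for Twist2, -3.84 for Zeb1, -4.39 for Zeb2, -6.20 for Prrx1 and -0.97 for Prrx2 on the log2 scale. In mouse 5, the same differences were -2.88, -4.39, -2.39, -4.31, -4.47, -4.37, -5.92 and -3.12. All 8 were lower in 3D in both animals, with the smallest difference for Prrx2 in mouse 4. For Snai3 the difference was 0.63 in mouse 4 and -0.09 in mouse 5. A fit with mouse as a replicate block has 1 residual degree of freedom, and in it 0 of the 9 factors passed (limma's adjusted p of 0.111 to 0.128 for 7 factors, 0.271 for Prrx2 and 0.536 for Snai3). Of all genes, 0 passed as well, and 7 of the factors had an unadjusted p between 0.000852 and 0.0162.

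The make-up of the set also differed between the cultures. Summed over the 9 factors, the libraries held 168, 114, 166 and 192 normalized FPKM in 2D and 10.7, 8.56, 5.75 and 8.85 in 3D. Prrx1 was the largest contributor in every 2D library, with 21.5 to 43.6% of the sum, and Twist1 gave 13.3 to 16.9%. In 3D, Twist1 gave 53.6 to 90.6%, and Prrx1 at most 14.6%. Prrx2 gave 3.51 to 11.5% in 2D and 0 to 29.0% in 3D. Snai2 gave 8.26 to 14.4% in 2D and 1.27 to 12.4% in 3D, so its share overlapped between the cultures.

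**Figure D3:**
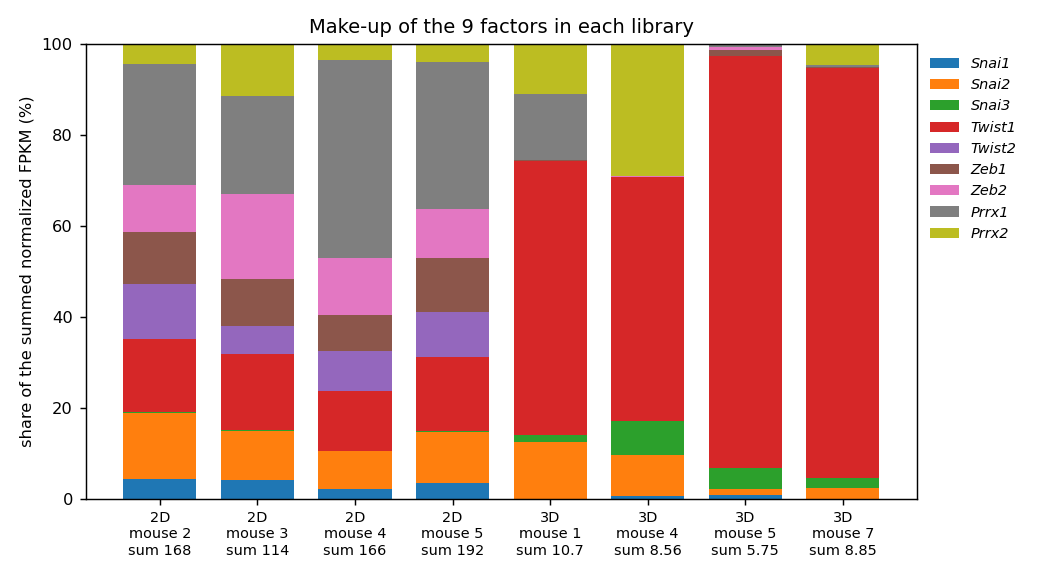
Share of the summed normalized FPKM of the 9 factors that each factor gives, in percent, with 1 bar per library and the sum in FPKM under each bar. Prrx1 (grey) is the largest part of each 2D bar, at 21.5 to 43.6%, and Twist1 (red) of each 3D bar, at 53.6 to 90.6%.

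By median level in 2D the order was Prrx1 (53.3 normalized FPKM), Twist1 (24.5), Zeb2 (20.4), Snai2 (17.6), Twist2 (16.6), Zeb1 (16.3), Prrx2 (7.60), Snai1 (5.75) and Snai3 (0.215). The ranges of neighbours overlapped at every step but the last, between Snai1 and Snai3. Within libraries, Prrx1 was above Twist1 in 4 of 4. In 3D the order was Twist1 (5.82), Prrx2 (0.784), Snai2 (0.495), Snai3 (0.223), Prrx1 (0.0424), Snai1 (0.0204), Zeb1 (0.0191), Zeb2 (0.0157) and Twist2 (0). Here only Twist1 was apart from its neighbour. Snai1, Zeb1, Zeb2 and Twist2, and Prrx1 in all but the library of mouse 1, were near the limit of detection and could not be ordered.

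Among the 2D cultures, the libraries of mice 3 and 4 were below those of mice 2 and 5 for Snai1, Snai2, Snai3, Twist1, Twist2 and Zeb1. The order did not hold for Zeb2, Prrx1 or Prrx2. The same libraries differed in the summed level of 6 markers of mesothelium, the cell layer that covers gonadal fat, which was 846 and 2028 normalized FPKM for mice 3 and 4 and 1.99 and 0.569 for mice 2 and 5. Krt18, a keratin also made by mesothelium, was at 114 and 256 for mice 3 and 4 and at 2.89 and 0 for mice 2 and 5. In 3D the mesothelial sum was 2.58 to 34.0. The part of these markers in the levels of the factors was not tested.

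Paralogs were set against each other within each library, as the difference of their log2(normalized FPKM + 1) values, and the 4 pairs were tested with a two-sided exact permutation test. With 4 libraries against 4, the smallest p it allows is 0.0286, and p-values were adjusted over the 4 pairs. Twist1 exceeded Twist2 by 0.76 ± 0.42 in 2D and by 2.79 ± 0.30 in 3D (SD, n = 4, exact permutation p = 0.0286, adjusted p = 0.0571). With Twist2 at 0 in 3D, the size of this change depends on the pseudocount: it was 2.03 here and 5.10 at a pseudocount of 0.1. The pair separated without overlap, from 0.40 to 1.36 in 2D and from 2.48 to 3.17 in 3D. Prrx1 minus Prrx2 was 2.39 ± 1.11 in 2D and -0.48 ± 0.92 in 3D (SD, n = 4, exact permutation p = 0.0286, adjusted p = 0.0571). The change of this pair was -2.87 here and -3.92 at a pseudocount of 0.1. Snai1 lay below Snai2 in all 8 libraries, with a mean difference of -1.50 ± 0.22 in 2D and -0.57 ± 0.53 in 3D (SD, n = 4, exact permutation p = 0.0571, adjusted p = 0.0762). In the 3D library of mouse 5, however, they rested on about 1.13 and 2.14 fragments, too few to order them. For Zeb1 and Zeb2 the difference was -0.27 ± 0.49 in 2D and 0.02 ± 0.04 in 3D (SD, n = 4, exact permutation p = 0.429). Both Zeb genes were near the limit of detection in 3D, where their difference had little room to vary. The test therefore cannot decide whether this pair changed alike. None of the 4 pairs passed an adjusted threshold of 0.05. The narrowing of the Snail pair turned around with a pseudocount of 0.1 (change of -0.43), so its direction depends on how values near 0 are scaled.

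**Figure D4:**
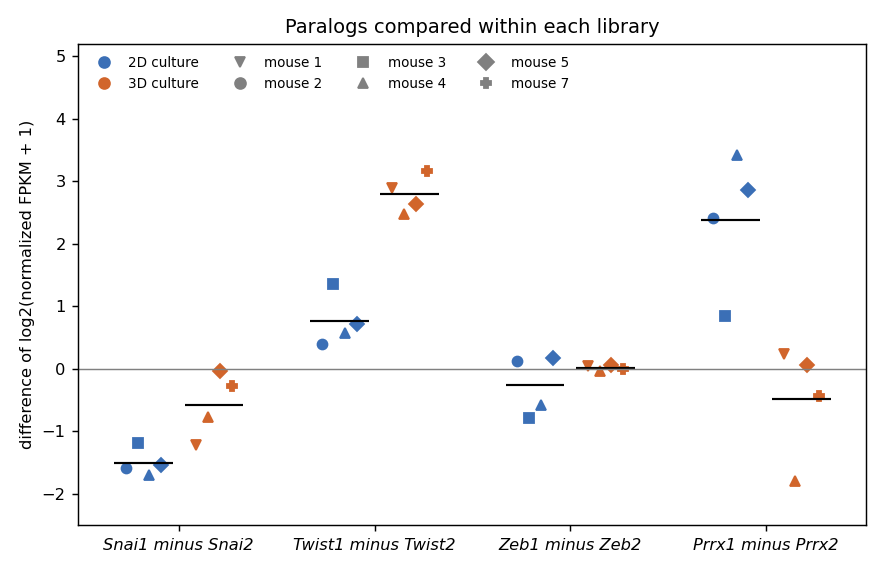
Difference between paralogs within each library, as log2(normalized FPKM + 1) of the gene named first minus the other, with 1 point per library (4 of 2D in blue, 4 of 3D in orange, shape by mouse) and a bar at the mean. Twist1 minus Twist2 moves up from a mean of 0.76 to 2.79 and Prrx1 minus Prrx2 moves down from 2.39 to -0.48, each without overlap.

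For each factor but Snai3, the 3 genes, of those averaging 1 normalized FPKM or more, with the most similar pattern over the 8 libraries are given. For Snai1 they were Col5a1, Cd248 and Siglecg (Pearson's r of 0.9995, 0.9994 and 0.9990 among 12583 genes). For Snai2 they were Ostf1, Nt5dc2 and Nt5dc3 (0.9959, 0.9955 and 0.9952). For Twist2 they were Gp1bb, Ebf1 and Fez1 (0.9996, 0.9989 and 0.9984), of which Ebf1 is a transcription factor of the adipocyte lineage. Zeb1 was most like Fbxl7, Inhba and Gpx7 (0.9995, 0.9991 and 0.9990), and Zeb2 most like Hoxc6, Ccdc80 and Gypc (0.9996, 0.9995 and 0.9995). Prrx1 was most like Fbln1, Thbs2 and Me2 (0.9964, 0.9953 and 0.9942), of which Fbln1 and Thbs2 encode matrix proteins. The likeness was weaker for Prrx2, whose nearest genes were Ranbp9, Arhgap23 and Psma4 (0.9797, 0.9777 and 0.9739). Twist1 was most like Pdap1, Gm3219 and Spryd3 (0.9954, 0.9937 and 0.9936). Pdap1 was at 47.4 normalized FPKM in 2D and 27.7 in 3D, a smaller fall than that of Twist1 (24.9 to 6.05). Cd248 fell from 49.7 to 0.00297. The correlation compares patterns and not the size of a fall. The 8 points of each correlation share the step between the cultures, so these values describe that step and not a relation within a culture.

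Other transcription factors linked to EMT moved in both directions. Of 18 tested, 7 were lower and 2 higher in 3D, beside 20.3% and 21.2% of all genes, with a median log2 fold change of -0.26. Tbx18, a T-box factor of mesenchyme, went from 9.01 ± 2.26 to 0.0124 ± 0.0248 normalized FPKM (SD, n = 4), and Foxc2, a forkhead factor, from 8.29 ± 5.99 to 0.00791 ± 0.0158. Hmga2, a chromatin protein that activates Snai1 and Twist1, fell from 38.8 ± 17.0 to 4.79 ± 2.64, and Ets1 from 17.2 ± 5.83 to 2.62 ± 1.82. Against this direction, Sox9, a factor of progenitor and duct epithelia as well as cartilage, rose from 4.41 ± 2.13 to 88.0 ± 46.8, a log2 fold change of 4.00 (SE 0.39, adjusted p = 1.7e-04 by limma). Foxm1, a factor of dividing cells, fell from 9.79 ± 5.92 to 1.28 ± 0.563. The other gene of the list that rose was Foxq1, named here after its values were seen, from 0.499 ± 0.590 to 5.30 ± 2.75.

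Of the 7 dimer partners and inhibitors of Twist proteins, 5 passed the test, in both directions. Tcf4, an E protein, was at 10.1 ± 3.76 normalized FPKM in 2D and 2.69 ± 0.371 in 3D (SD, n = 4, log2 fold change -1.52, SE 0.25, adjusted p = 0.0022 by limma). Tcf12 was lower by a smaller amount (-0.29, SE 0.10, adjusted p = 0.047 by limma), and Tcf3 was at 28.6 ± 5.76 and 24.8 ± 5.59 (SD, n = 4) and did not pass. All 3 E proteins remained at 2.30 normalized FPKM or more in each 3D library. Among the Id proteins, which bind E proteins and keep them from DNA, Id3 fell from 84.6 ± 34.1 to 1.03 ± 0.838 normalized FPKM (log2 fold change -5.41, SE 0.40, adjusted p = 3.9e-05 by limma). Id2 rose from 8.76 ± 3.27 to 74.2 ± 14.7 (2.99, SE 0.26, adjusted p = 9.2e-05 by limma), and Id4 from 0.887 ± 0.624 to 43.7 ± 51.0 (4.05, SE 0.64, adjusted p = 0.0018 by limma), with 120 in the 3D library of mouse 1 and 15.1 to 23.6 in the others. Id1 was at 58.4 ± 38.4 and 43.5 ± 25.4 and did not pass. In all, 3 of the 7 genes were lower and 2 higher, with a median of -0.29, beside 20.3% and 21.2% of all genes. The count of lower genes was 2 in 10 of the 15 alternatives without a block, and the Id genes that passed went in opposite directions.

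Corepressors and chromatin cofactors that Snail and Zeb proteins recruit were expressed in both cultures. Apart from Suv39h1, their log2 fold changes were at most 0.72 in size. Of 17, 1 was lower and 7 were higher in 3D, beside 20.3% and 21.2% of all genes, with a median of 0.16. Without the 2D library of mouse 4, 2 were lower. On the values as deposited, 3 were lower and 3 higher, so that the balance of directions depended on the scaling. Suv39h1, a histone H3 lysine methyltransferase, was the lower one, at 9.33 ± 3.61 normalized FPKM in 2D and 3.74 ± 0.143 in 3D (log2 fold change -1.05). Ep300 (0.72), Ctbp2 (0.63), Sin3a (0.59), Kdm1a (0.52) and Ehmt2 (0.51) had the largest positive log2 fold changes among those called. Kdm1a, the histone demethylase LSD1 that Snail binds, was at 20.8 ± 1.23 in 2D and 30.1 ± 1.99 in 3D.

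Regulators of the stability of Snail, Twist and Zeb proteins were called in both directions, with 4 of 16 lower, 5 higher and a median of -0.04. These counts are near the shares of all genes, 20.3% and 21.2%. Fbxl5, an F-box protein that targets Snail, rose from 17.3 ± 1.38 to 35.9 ± 5.88 normalized FPKM, and Usp3, a deubiquitinase, from 7.15 ± 1.02 to 12.7 ± 1.36. Lats2, a Hippo pathway kinase that phosphorylates Snail, fell from 25.7 ± 14.2 to 6.25 ± 2.18. Among 20 genes of the signals that induce the factors, 8 were lower and 4 higher in 3D, beside the same shares of all genes. Their median was -0.36. The list also holds Smad7 and Skil, which inhibit TGF-β signalling, and Skil was among the lower genes. Fgf2 fell from 28.7 ± 7.83 to 0.0335 ± 0.0670 and Il6 from 4.34 ± 0.834 to 0, while Tgfb2, a ligand of the TGF-β pathway, fell from 8.90 ± 3.58 to 1.43 ± 0.809. Notch1, a receptor that can raise Snai1 and Snai2, rose from 1.90 ± 1.13 to 59.2 ± 19.7, and its ligand gene Jag1 from 10.5 ± 5.49 to 32.4 ± 10.1. Egr1 rose from 14.2 ± 9.62 to 36.4 ± 8.84.

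Known and proposed targets of the factors moved as 2 opposed groups. Of 17 epithelial genes listed as repressed targets, 16 were higher and 0 lower in 3D, beside 21.2% and 20.3% of all genes. Their median log2 fold change was 4.89. Epcam, an epithelial adhesion molecule, was at 0 to 0.0504 normalized FPKM in 2D and at 265 to 494 in 3D, and Cdh1 (E-cadherin) at 0 to 0.716 and 276 to 401. The claudin genes Cldn4 (0 to 0.621 in 2D and 248 to 442 in 3D), Cldn3 (0 to 0.189 and 168 to 229) and Cldn7 (0 to 0.234 and 107 to 134) separated in the same way. Rab25, an epithelial trafficking GTPase, was at 0 to 0.306 in 2D and 95.1 to 110 in 3D. Crb3, the polarity gene with 4 E-boxes shown above, was listed at 0 in every 2D library and was at 24.0 to 31.3 in 3D; it was chosen for its promoter after its values were seen. Krt18, at a log2 fold change of 4.89 (limma's adjusted p = 0.052), was the 1 gene of this list that did not pass. Of 12 epithelial transcription and splicing factors known to oppose EMT, 8 were higher and 0 lower, beside the same shares of all genes. Their median was 1.48. The ETS factor Elf3 (at 0 in every 2D library and 114 ± 35.1 in 3D), the splicing factor Esrp1 (0 and 37.8 ± 4.02) and Grhl2, a grainyhead factor that represses Zeb1 (0.00683 ± 0.0137 and 29.5 ± 7.15), had the largest changes of this list. Smaller rises were seen for Foxa1 (0.0191 ± 0.0222 and 2.96 ± 0.791), Grhl1 (0.191 ± 0.148 and 3.23 ± 0.742) and Ovol1 (0.179 ± 0.0829 and 3.07 ± 0.452). Klf4, Foxa2, Grhl3 and Elf5 did not pass.

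Of 24 mesenchymal genes that EMT raises, 23 were lower and 0 higher, beside 20.3% and 21.2% of all genes. Their median was -7.25. Sparc went from 2559 ± 266 to 0.325 ± 0.543 normalized FPKM (SD, n = 4), Col1a2 from 1256 ± 575 to 0.0114 ± 0.0106, and Vim from 2345 ± 743 to 4.18 ± 3.69. The smooth muscle genes Tagln (1828 ± 679 and 0.633 ± 0.331) and Acta2 (1667 ± 825 and 0.634 ± 0.165) fell together with them. Fap, at 1.13 ± 0.962 and 0.389 ± 0.325, was the gene that did not pass. These lists hold markers of whole cell types, and the stromal and epithelial marker sums moved with them by the amounts given above. The 7 listed genes of the miR-200 family, miR-205 and miR-34a, which restrain Zeb and Snail RNAs, were at 0 in all 8 libraries; mature microRNAs were not measured.

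**Figure D5:**
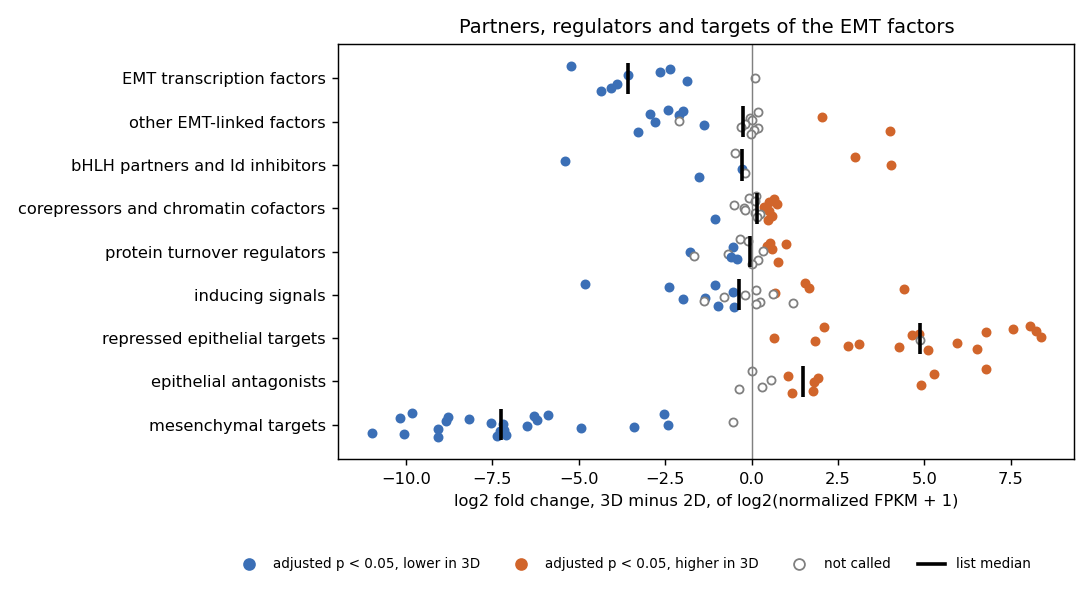
Log2 fold change from 2D to 3D of each gene in the lists of partners, regulators and targets, on the log2(normalized FPKM + 1) scale, with 1 point per gene (blue, lower; orange, higher; open, not called at an adjusted p of 0.05) and a black bar at the list median. The EMT factors (median -3.58) and mesenchymal targets (-7.25) lie left of 0, the repressed epithelial targets (4.89) right of it, and the other lists around it or, for the epithelial antagonists, at 1.48.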

How the data were processed

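The authors trimmed the paired-end reads, mapped them with TopHat to mm10 (build and mapper per the submitters' processing notes) and deposited FPKM per gene from Cufflinks, 1 file per library; the annotation is not given in the sources used here. The title of the 3D library of mouse 1 names its culture, and its second label does not. Genes at 0 in all 8 libraries (5484 of 24346) were left out. The deposited FPKM were quantile normalized and compared as log2(FPKM + 1) with limma 3.58.1 in R 4.3.3, with an intensity trend, no block, two-sided, and Benjamini-Hochberg adjustment over 18862 genes. In simulated data with normal noise and large changes in expressed genes, 170 of 200 changed genes were recovered. That share does not hold for small changes or for values near 0, which were not simulated. Paralog pairs were compared with exact permutation tests. Edges of detection rest on fragment numbers estimated from the steps of low FPKM values of 877 genes. GENCODE M21 gives each of these genes 1 transcript, 3000 nt or longer. Per library, 133 to 156 low values were used. At the best-fitting depth, 65.8 to 78.2% of them came within 0.15 of whole numbers of fragments. The fragment numbers are estimates, and intervals and floors from them cover counting error only. Mice 4 and 5 are the same animals in both cultures per the labels; the deviations of their 2D and 3D libraries from the culture means correlated at -0.05 and -0.11 over 12577 genes. Named genes were all members, the up to 6 called genes of each list with the largest change, all genes of lists of 8 or fewer, uncalled genes with values only, and the 3 genes most like each member. The members and lists were chosen with earlier results of these data known. Alternatives were the values as deposited, short genes left out, no trend, a filter at a mean of 1 FPKM, a smaller pseudocount (0.1), a replicate block or random effect for mouse, mice 4 and 5 alone, and leaving out each library.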

Additional observations from a re-analysis of the deposited data

Results flagged for a closer look

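Of 17 sets of 4 libraries (a factor in a culture), 2 held a library far from the others by Dixon's test of the gap to the nearest library over the whole range, at its 95% critical value; chance flags about 1 in 20 such sets. For Snai3 the 3D library of mouse 4 stood at 0.649 normalized FPKM, a gap of 0.834 of the range, and 0.183 to 0.261 in the other 3D libraries. For Prrx1 that of mouse 1 stood at 1.55 normalized FPKM, a gap of 0.972, and 0 to 0.0437 in the others. Each of these 3D libraries was apart for 1 of the 9 factors only.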

How the results depend on the processing

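With the mouse number as a replicate block, 0 factors were called lower in place of 8, and 0 genes lower and 0 higher in place of 3823 and 4000. That fit has 1 residual degree of freedom. With only mice 4 and 5, 1432 genes were lower and 1788 higher, and 7 factors were called, Prrx2 being lost (-2.04, limma's adjusted p = 0.139). Without these 2 settings, the same 8 factors were called under each alternative run, each library left out included. Snai3 ranged from -0.02 to 0.18 with 1 library left out, the sign turning without the 3D library of mouse 4, and could not be tested with a mean of at least 1 FPKM. At a pseudocount of 0.1, the change of Snai1 minus Snai2 was -0.43 in place of 0.93 and that of Twist1 minus Twist2 was 5.10 in place of 2.03. Prrx1 minus Prrx2 changed by -4.02 with only mice 4 and 5, where the exact permutation test cannot pass. The cause was not tested, except that both smaller fits rest on fewer samples or degrees of freedom. Values near 0 in 3D, at a few fragments per library, limit the ranking of the factors there.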
